A study of Mus musculus with 15 samples.

Results

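The comparison described here set the 4 mouse RNA-seq libraries with the genotype label hr against the 2 with the genotype label ha, across all genes. They were taken by their labels from a series of 15 samples in 2 experiments. All 6 belong to experiment 2, which holds 8 samples, the other 2 being libraries of the genotype label EF. All 8 carry the cell type label MSCLCs, which the labels do not spell out, and the design text calls the groups hr-EFPrx1, ha-EFPrx1 and EFPrx1 MSCLCs. YAP1, EWS::FLI1, IGF-1 and mesenchymal stem cells of bone are named in the title of the series. Sample titles read Combi and uns for hr and Combi and T for ha, and all titles of experiment 2 begin with the same number. The sources used here do not give the meaning of hr, ha, EF, Combi, uns or T, nor a treatment, age, sex or strain. The same flowcell and lane are given for all 8 libraries. Since no label ties libraries of a group to separate cultures or animals, the spread behind each p-value may be technical.

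EWS::FLI1 is the fusion transcription factor of Ewing sarcoma, a tumour of bone and soft tissue for which mesenchymal stem cells have been proposed as a cell of origin. YAP1 is a transcriptional coactivator that binds TEAD factors and is held in the cytoplasm when the kinases of the Hippo pathway phosphorylate it; TAZ, encoded by Wwtr1, is its paralog. IGF-1 is a secreted growth factor that signals through the receptor encoded by Igf1r and the adaptor proteins Irs1 and Irs2, and IGF binding proteins hold it in the extracellular space.

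The hr libraries held 11386472 to 14211419 counts and the ha libraries 14297255 and 16378408, with 2.89% to 4.09% of counts from mitochondrial genes. The titles number the hr libraries 1-1, 1-2, 2-1 and 2-2. The squared difference between libraries, as a multiple of that from counting alone, was 1.29 between hr 1-1 and hr 1-2 and 1.31 between hr 2-1 and hr 2-2, but 14.8 to 15.8 between libraries of different first number. The ha libraries lay 18.8 apart, and hr and ha libraries 37.5 to 60.1 apart. Libraries that share a first number were therefore summed (hr 1 and hr 2), and 2 hr sums were compared with 2 ha libraries. Levels are given per library, as CPM (the reads of a gene relative to all reads of its library, scaled by TMM), and are comparable between libraries of a gene, not between genes, since they are not divided by length.

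Of 14324 genes tested, 1373 (9.59%) were called different between hr and ha (edgeR adjusted p under 0.05): 438 (3.06%) were higher in hr and 935 (6.53%) lower, so that 68.1% of calls were lower in hr. The median log2 fold change, hr minus ha, was -0.01 over all genes tested, 1.80 over the genes called higher and -3.25 over those called lower. With genes that had no count in a whole group set to the bound that 3 counts over the group allow, the last median was -3.24. Under the same bound, 501 genes called lower and 126 called higher differed more than 8-fold. In 8014 genes (55.9%) the 4 hr libraries and the 2 ha libraries did not overlap, and this held for 1367 of the 1373 called genes. On log2(CPM + 1), the difference between hr 1 and hr 2 had a median of 0.23 over the called genes, that between ha 1 and ha 2 was 0.31, and that between hr and ha was 1.79. Over all genes tested, these medians were 0.26, 0.27 and 0.41. Called genes were picked for a large difference between the groups, so their medians follow in part from that choice. The number of calls rested on the replicates: it was 648 without ha 1, 463 without ha 2, 1034 without hr 1 and 563 without hr 2, and between 1334 and 1412 without any single hr library. When an omission left a group with 1 sample, that sample was taken to vary like the other group. Of 101 called genes taken by the rule for named genes, 41 kept their call in all 8 omissions, and none of the 123 tested genes taken by that rule changed direction in an omission.

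**Figure D1:**
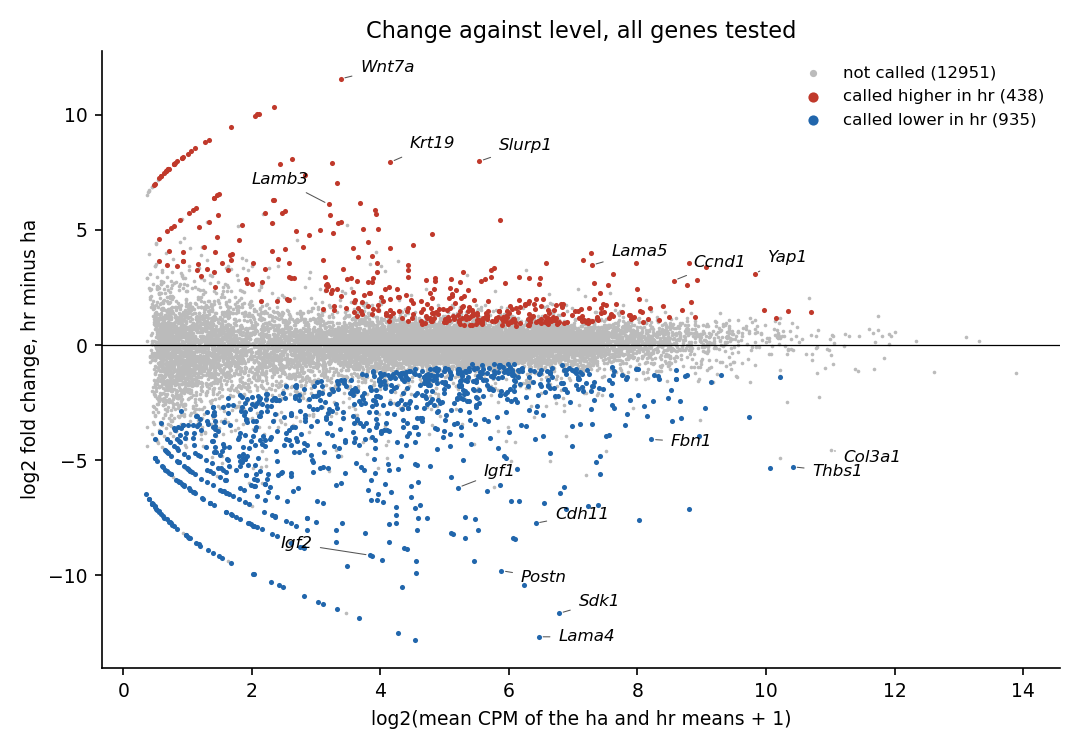
Log2 fold change (hr minus ha) of 14324 genes against their level, as log2 of the mean of the group means in CPM plus 1. Red points are the 438 genes called higher in hr, blue points the 935 called lower, and grey points were not called; the curved edges at low levels are genes with no or few counts in one group, whose fitted change depends on the prior count.

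Gene groups differed in how their members were called. Among lists with at least 8 members tested, the share called lower was highest for interferon response genes (15 of 26), IGF ligands, receptors and binding proteins (9 of 19) and Wnt pathway genes (10 of 23). The share called higher was highest for epithelial genes (5 of 11), antioxidant and glutathione genes (8 of 23) and glycolysis and hypoxia genes (5 of 23). The lists are described by counts and medians, beside the 3.06% and 6.53% and the median of -0.01 over all genes tested, and no list was tested as a set. A member near 0 in a group was tested only where the other group held enough counts. Shares and medians of a list tested in part can lean through this filter.

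**Figure D2:**
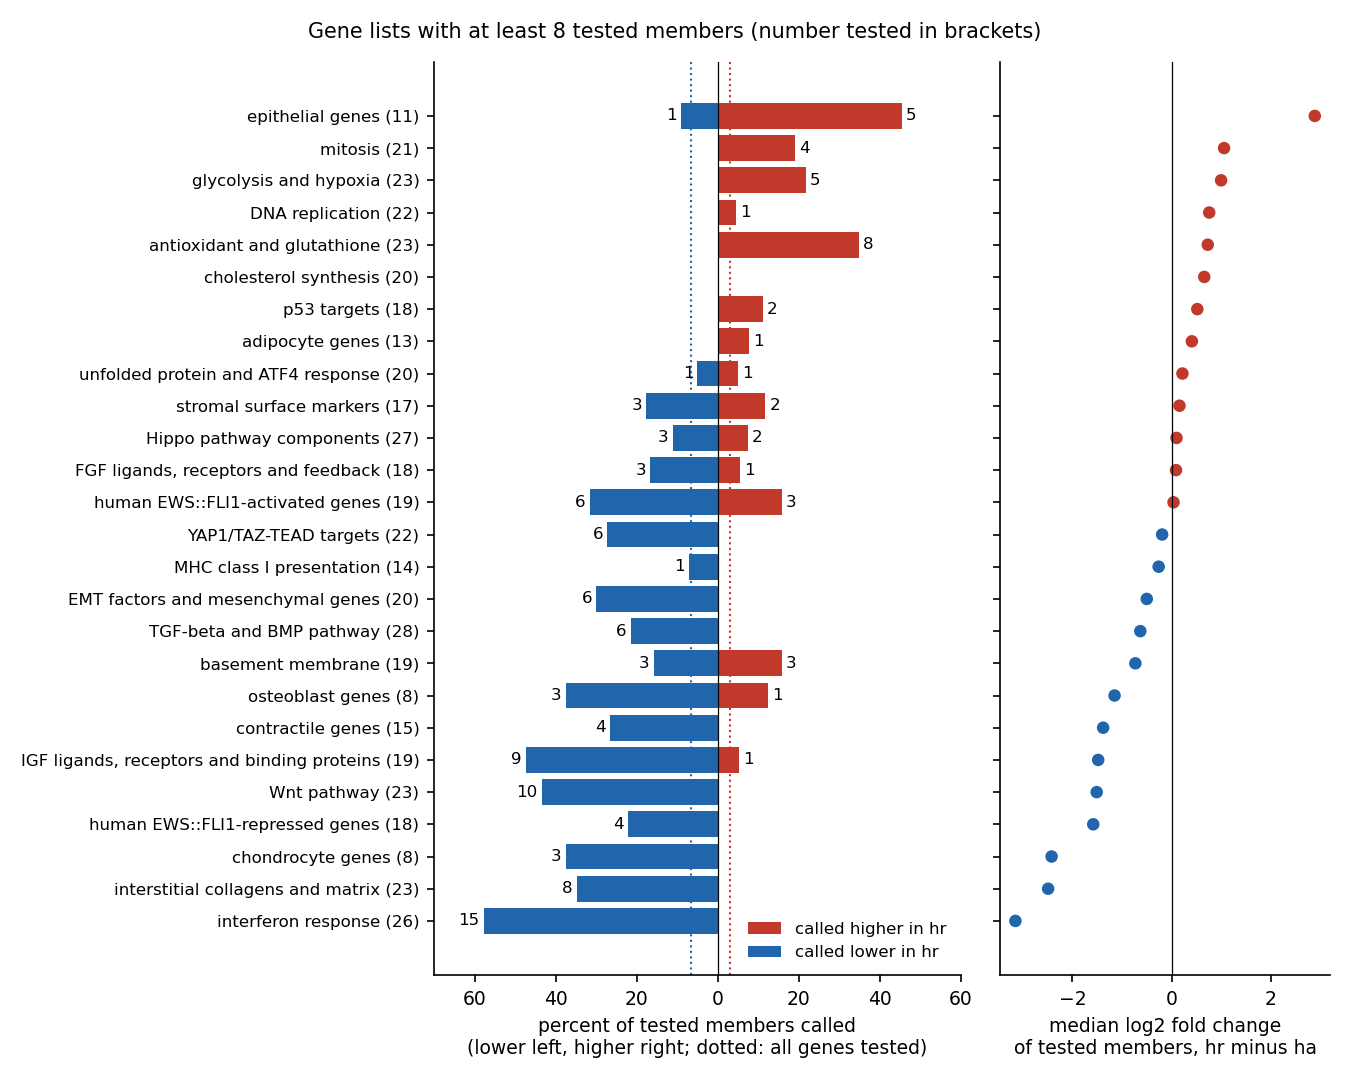
Percent of tested members called lower (blue, left) and higher (red, right) in hr for lists with at least 8 tested members, with the number called at each bar and the number tested in brackets; dotted lines mark the shares over all genes tested, 6.53% lower and 3.06% higher. The right panel gives the median log2 fold change of the tested members, from -3.15 for interferon response genes to 2.89 for epithelial genes.

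Yap1, the gene named in the series title, was higher in hr. It stood at 195 CPM in ha 1 and 184 in ha 2, at 1805 and 1806 in the libraries of hr 1, and at 1429 and 1412 in those of hr 2. All 4 hr libraries lay far above both ha libraries, and the log2 fold change was 3.10 ± 0.27 (SE), with an edgeR adjusted p of 0.00912 and a call in all 8 omissions. The SE, here and below, is the size of the fold change divided by the square root of the test's F statistic. It restates the test and is not a separate estimate of spread. EF libraries stood at 1282 and 1253 CPM, near hr. Yap1 lies on the minus strand at chr9:7931999-8004596 (GRCm38). Its paralog Wwtr1 stood at 176 and 169 CPM in ha and 129 to 136 in hr; the difference of -0.38 ± 0.19 did not pass the test (edgeR adjusted p = 0.236).

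Of 27 Hippo pathway components tested, 2 were called higher in hr, 3 lower, and 22 did not pass, with a median of 0.10 (0.30 without hr 1 and -0.10 without hr 2). Wwc1, which encodes the scaffold KIBRA upstream of the LATS kinases, was the other gene called higher, from 17.6 and 14.9 CPM in ha to between 72.8 and 135 in hr (2.68 ± 0.35, edgeR adjusted p = 0.0187). Fat4 and Dchs1 encode protocadherins that bind each other between neighbouring cells. Fat4 stood at 49.8 and 81.4 CPM in ha, 0.0843 and 0.0851 in hr 1, and 2.22 and 2.40 in hr 2 (edgeR adjusted p = 0.037), so it was lower in every hr library but by different amounts in hr 1 and hr 2. Its log2 fold change was -5.75 ± 1.08, and -9.46 without hr 2. Dchs1 (-2.60 ± 0.51) and the angiomotin gene Amot (-0.99 ± 0.19), whose product binds YAP1, were the others called lower. None of these 4 calls was kept without ha 1 or without ha 2, which left Yap1 as the call of the list, where the highest edgeR adjusted p was 0.0725 for Wwc1, 0.225 for Fat4, 0.126 for Amot and 0.132 for Dchs1. Amot and Dchs1 also lost their calls without hr 1 or hr 2 (edgeR adjusted p up to 0.131 and 0.15). Without hr 1 the list held 3 calls higher and 1 lower, and without hr 2, 2 higher and 1 lower. Transcripts of the core kinases and of NF2 did not pass, and Lats1 and Lats2 changed sign among the omissions: Lats1 differed by 0.04 ± 0.23, Lats2 by -0.17 ± 0.37, Stk3 by -0.49 ± 0.30, Stk4 by 0.20 ± 0.18 and Nf2 by 0.10 ± 0.19. Among TEAD genes, Tead4 stood at 4.81 and 4.39 CPM in ha and 10.5 to 23.6 in hr without passing (edgeR adjusted p = 0.0579).

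A list of 22 YAP1/TAZ-TEAD target genes, drawn from human cells, held no gene called higher in hr and 6 called lower, with a median of -0.19. The absence of higher calls depended on the test. At an unadjusted p under 0.05, 3 were higher and 7 lower. DESeq2 called 2 higher and 7 lower, and edgeR with 6 libraries as separate samples 1 and 7. By limma-voom none was called higher and 6 lower. The median turned to 0.29 without hr 1, and was -0.62 without hr 2 and -0.10 without ha 2. The 6 were Rbms3, Igfbp3, Ccdc80, Tgfb2, Fjx1 and F3, of which F3 lost its call without hr 1 or hr 2 (edgeR adjusted p = 0.044, and up to 0.179). Ccdc80, which encodes a secreted matrix protein, stood at 183 and 237 CPM in ha and 33 to 41.2 in hr (-2.49 ± 0.25, edgeR adjusted p = 0.012). Rbms3, which encodes an RNA-binding protein, stood at 58.7 and 58.6 CPM in ha and 9.02 to 11.9 in hr (-2.51 ± 0.20, edgeR adjusted p = 0.00847). For Ccn1, Ccn2 and Ankrd1, the most used readouts of YAP1 and TEAD, the 2 hr numbers stood apart. Ccn1, which encodes a secreted matricellular protein, was at 747 and 721 CPM in ha, 58.3 and 59.1 in hr 1, and 445 and 436 in hr 2. Ccn2, its relative, was at 39.6 and 194 in ha, 8.76 and 8.59 in hr 1, and 69.2 and 68.6 in hr 2. Ankrd1, which encodes an ankyrin repeat protein, was at 61.4 and 50.6 in ha, 71.5 and 68.0 in hr 1, and 229.9 and 220.1 in hr 2. In all 3 genes hr 2 was above hr 1, and none passed the test against ha (edgeR adjusted p = 0.291, 0.387 and 0.163). DESeq2 called Ankrd1 higher in hr (DESeq2 adjusted p = 0.0427). With hr 1 alone, Ccn1 was called lower (-3.62, edgeR adjusted p = 0.0158), and with hr 2 alone, Ankrd1 was called higher (2.05, edgeR adjusted p = 0.0176). Without hr 1 the list held 2 genes called higher and 5 called lower.

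The promoters of Ccn1 and Ankrd1 hold the letters GGAATG (or CATTCC on the other strand), the core of the motif that TEAD factors bind, and are shown because their transcripts differed between the hr numbers. Both are RefSeq sequences on GRCm38.p6, chr3:145650058-145650113 for Ccn1 and chr19:36119937-36120079 for Ankrd1, read on the minus strand, with the motif in capitals. The site of Ccn1 begins 103 bases before the start, and those of Ankrd1 123 and 210 bases before it. In the annotation used for gene positions here, Ankrd1 spans chr19:36111961-36120099. Its printed stretch lies inside that span, since the RefSeq start used is further downstream.
Ccn1: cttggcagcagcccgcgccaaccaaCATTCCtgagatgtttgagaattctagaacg
Ankrd1: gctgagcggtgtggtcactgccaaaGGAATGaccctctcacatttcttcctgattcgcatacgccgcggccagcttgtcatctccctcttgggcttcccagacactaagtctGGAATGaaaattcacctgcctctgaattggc

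Most of the IGF genes that passed the test were lower in hr. Of 19 tested, 9 were called lower and 1 higher, with a median of -1.48. Igf1 stood at 31.2 and 111 CPM in ha and 0.857 to 1.16 in hr (-6.19 ± 0.75, edgeR adjusted p = 0.0157), and EF was at 0.624 and 0.561. The ha libraries differed more than 3-fold from each other, yet both lay far above every hr library; without hr 2 the call was lost (edgeR adjusted p = 0.0935). Igf2, which encodes the second IGF ligand, had 813 counts in ha (28.5 and 24.7 CPM) and 2 counts in hr, both in hr 2-2. The ratio of hr to ha had a 95% exact counting interval of 0.000187 to 0.00562, and the call was kept in all 8 omissions (edgeR adjusted p = 0.00744). The receptor gene Igf1r stood at 246 and 231 CPM in ha and 116 to 171 in hr and did not pass (-0.72 ± 0.25, edgeR adjusted p = 0.129). Igf2r, whose product takes the Igf2 ligand to lysosomes, was called lower (-1.48 ± 0.21, edgeR adjusted p = 0.0218, lost in 4 omissions), as was Irs1, at 139 and 161 CPM in ha and 39.8 to 46.7 in hr (-1.79 ± 0.21, edgeR adjusted p = 0.0148).

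Among the IGF binding proteins, Igfbp3 stood at 31.8 and 38.6 CPM in ha and 2.79 to 4.30 in hr (-3.25 ± 0.28, edgeR adjusted p = 0.00912). Igfbp4 (-1.49 ± 0.28, edgeR adjusted p = 0.0362) and Igfbp7 (-2.03 ± 0.37, edgeR adjusted p = 0.0347) were called lower too, each lost in 3 omissions (edgeR adjusted p up to 0.134 and 0.126). Igfbp5 stood at 188 and 25.5 CPM in ha and 0 to 3.46 in hr and did not pass (edgeR adjusted p = 0.0658), while Igfbp6 was at 184 and 135 in ha and 216 to 330.4 in hr, also without passing (edgeR adjusted p = 0.152). Pappa encodes a protease that cuts IGF binding proteins. It had 342 counts in ha and 2 in hr, with a counting interval of the ratio from 0.000445 to 0.0134 and an edgeR adjusted p of 0.0148. The gene called higher was Igf2bp1, which encodes an RNA-binding protein of fetal tissues, at 32.2 and 25.2 CPM in ha and 83.7 to 141 in hr (1.96 ± 0.30, edgeR adjusted p = 0.0253); this call was lost without ha 1 or ha 2 (edgeR adjusted p up to 0.0887). With ha 2 left out, 5 IGF genes were called lower and none higher, and with hr 2 left out 4 were called lower and 1 higher, and with hr 1 left out 6 lower and 1 higher.

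Mouse orthologs of genes that EWS::FLI1 activates in human Ewing sarcoma cells went both ways: of 19 tested, 3 were called higher in hr and 6 lower, with a median of 0.04 (-0.23 without ha 1 and 0.18 without ha 2). Ccnd1, which encodes cyclin D1, stood at 109 and 81.4 CPM in ha, 406 and 422 in hr 1, and 901 and 909 in hr 2 (2.80 ± 0.44, edgeR adjusted p = 0.0268). Steap1, which encodes a cell surface protein of the STEAP family, stood at 4.44 and 4.63 CPM in ha and 16.8 to 26.7 in hr (2.26 ± 0.31, edgeR adjusted p = 0.020). The third was Aurkb, a mitotic kinase gene (1.34 ± 0.23, edgeR adjusted p = 0.0311). The calls of Ccnd1, Steap1 and Aurkb were lost without ha 1 and without ha 2, where none of the list was called higher (edgeR adjusted p up to 0.109, 0.0582 and 0.0962). Without hr 2, Steap1 and Aurkb lost theirs too (edgeR adjusted p = 0.0667 and 0.0964). The 6 called lower included Igf1 and Pappa, given above, and Dkk2, a secreted regulator of Wnt signalling with 160 counts in ha and 1 in hr (counting interval of the ratio 9.91e-05 to 0.0223, edgeR adjusted p = 0.0176). Pappa and Dkk2 were tested only through ha. Of 28 members 19 had enough counts to test, so the share called lower can lean through the filter. Without ha 1 and without hr 2, 3 members were called lower, and without ha 2 or hr 1, 4. The known human targets Nr0b1 and Nkx2-2 had no count in any of the 6 libraries, where 3 counts would be 0.0974 CPM over the ha and 0.0614 over the hr libraries. Of 18 orthologs of EWS::FLI1-repressed genes, none was called higher and 4 were called lower, with a median of -1.58 and 17 of 18 below 0. With hr 1 left out the median was -0.92, with 4 called and 15 below 0, and with hr 2 left out -3.10, with 7 called and 17 below 0. The 4 were Postn, Cdh11, Igfbp3 and Thbs1, of which Thbs1, thrombospondin 1, lost its call without hr 1 (edgeR adjusted p = 0.0232, and 0.0518). Fli1 itself was low, at 5.03 and 6.91 CPM in ha and 1.10 to 1.86 in hr (-2.12 ± 0.46, edgeR adjusted p = 0.0479), and its call was lost in 6 of 8 omissions. Ewsr1 did not pass (0.30 ± 0.21, edgeR adjusted p = 0.398). Reads of the fusion are not counted apart from those of its parent genes here, so neither gene checks the labels.

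The genes of largest change with at least 10 CPM in the higher group are plotted by library with others that the text names. On the side of hr, the 10 include keratins and small proteins of the Ly6 family. Krt19 stood at 0.146 and 0.117 CPM in ha and 30.9 to 34.7 in hr (7.94 ± 0.35, edgeR adjusted p = 0.003). Slurp1, a secreted protein of the Ly6 family found in skin, stood at 0.146 and 0.527 CPM in ha, 117 and 122 in hr 1, and 61.1 and 61.9 in hr 2 (7.98 ± 0.63, edgeR adjusted p = 0.00847). Psca, a member of the same family, had 2 counts in ha and 825 in hr, a ratio between 71.8 and 2.15e+03. Krt14, a keratin of basal epithelium, had 1 count in ha and 495 in hr, a ratio between 55.7 and 1.23e+04 (edgeR adjusted p = 0.0149). Both these genes kept their call in all 8 omissions. All 4 were well above 0 in both hr numbers and near 0 in both ha libraries, but they were picked for a large change without overlap.

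The remaining genes of largest change towards hr encode proteins of several kinds. L1cam, a neural cell adhesion molecule, stood at 0.291 and 0.351 CPM in ha and 11.7 to 20.1 in hr (5.63 ± 0.45, edgeR adjusted p = 0.00847). Gsta1, a glutathione transferase, had 2 counts in ha and 596 in hr, a ratio between 51.8 and 1.55e+03; it is one of a family of near-identical genes, so its reads may be shared with relatives. Wnt7a, a Wnt ligand, had no count in ha and 943 in hr, at least 198-fold higher, with 5.82 and 6.04 CPM in hr 1 but 31.0 and 32.8 in hr 2; its call was lost without ha 1 and without ha 2 (edgeR adjusted p = 0.0371, and up to 0.163). Prl2c2, of the placental prolactin family, stood at 1.02 and 0.117 CPM in ha and 17.7 to 38.9 in hr, a call lost without hr 2 (edgeR adjusted p = 0.0236, and 0.0739 without). It too has near-identical copies. Cldn9, a claudin, stood at 0.291 and 0 CPM in ha and 8.09 to 27 in hr (7.02 ± 1.12, edgeR adjusted p = 0.0274). Its call was lost without ha 1 (11.63, edgeR adjusted p = 0.0638), without ha 2 (edgeR adjusted p = 0.0978) and without hr 1 (edgeR adjusted p = 0.0511).

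On the side of ha, the genes of largest change had at most 3 counts over the 4 hr libraries. Sdk1, an immunoglobulin-family adhesion molecule of synapses, had 6784 counts in ha (196 and 239.9 CPM) and 3 in hr, a ratio of hr to ha between 5.75e-05 and 0.000815. Lama4, the laminin alpha 4 chain, had 5343 counts in ha (192 and 159 CPM) and 1 in hr, a ratio between 2.99e-06 and 0.000658. No count in hr was seen for Pde7b, a cyclic AMP phosphodiesterase gene (at least 629.8-fold lower), Dync1i1, a dynein intermediate chain gene (at least 369-fold), Tril, a Toll-like receptor accessory gene (at least 283-fold), Tll1, a tolloid-like protease gene (at least 259-fold), Steap4, a metalloreductase gene (at least 234-fold), and Olfm2, an olfactomedin gene (at least 198-fold). All these kept their call in all 8 omissions. Dio2, the deiodinase that activates thyroid hormone, had 1470 counts in ha (17.2 and 72.3 CPM) and none in hr, at least 777-fold lower, but its call was lost without hr 2 (edgeR adjusted p = 0.0242, and 0.0836 without). In all, 37 genes had at least 1 CPM in ha and no count in hr, and 31 had at least 1 CPM in hr and no count in ha. In EF, the 10 genes of this side stood between 0 and 0.16 CPM.

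**Figure D3:**
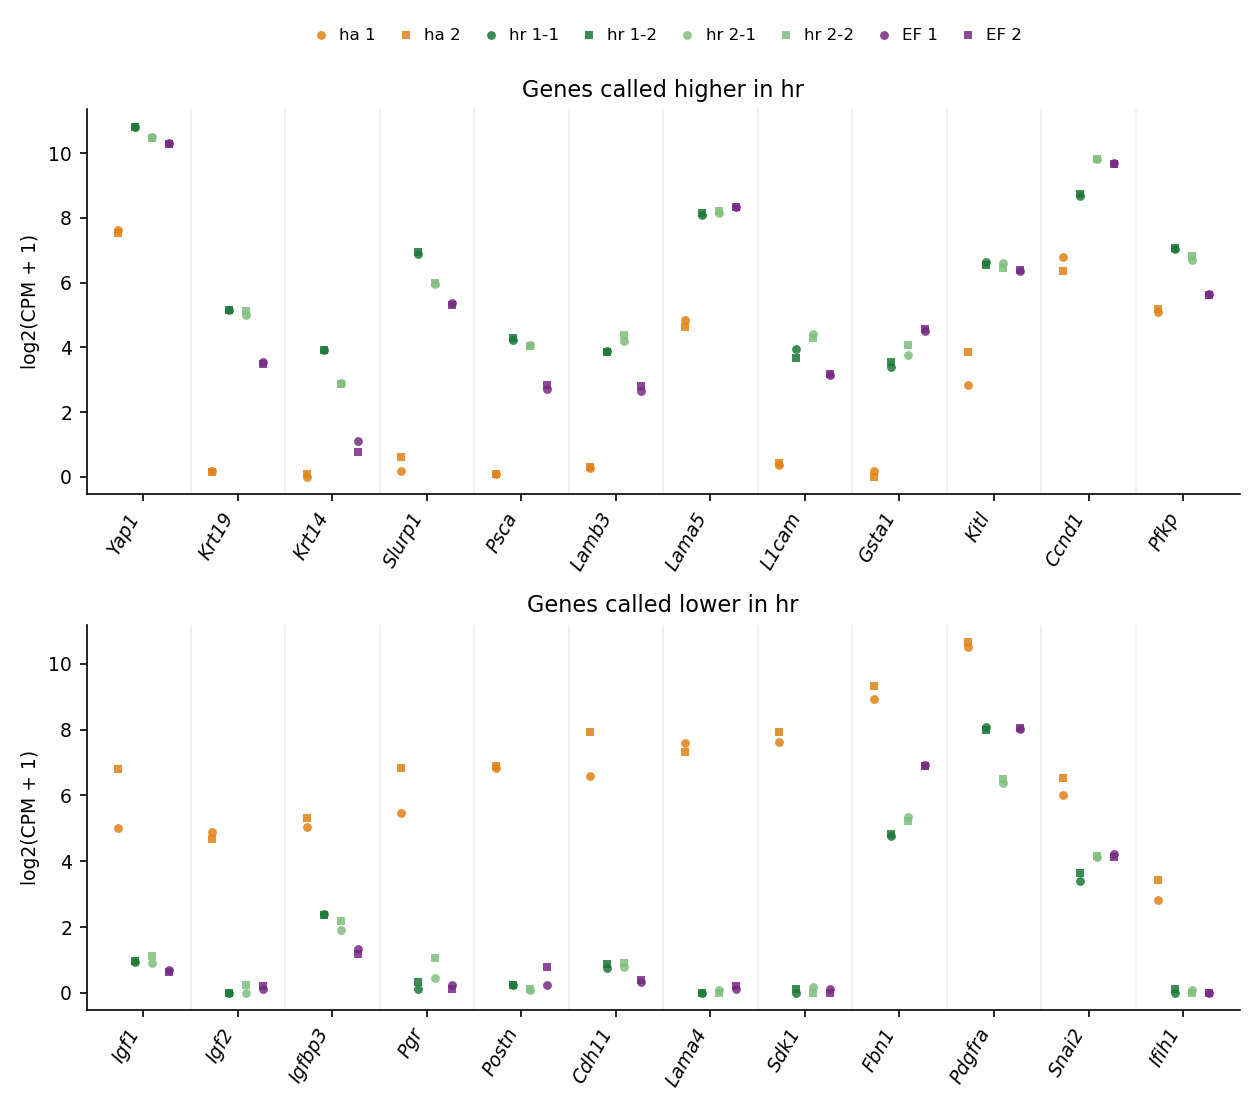
Level in each library, as log2(CPM + 1), of 12 genes called higher in hr (top) and 12 called lower (bottom); circles and squares are the libraries of a group or hr number. The ha points (orange) stand apart from the hr points (green) in every gene shown, libraries of an hr number lie close together, and EF (purple) lies nearer to hr than to ha except in Krt14 and Pfkp.

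Few epithelial genes were expressed. Of 31 epithelial genes, 11 had enough counts to test. Among these, 5 were called higher in hr and 1 lower, with a median of 2.89. Of the 5, Krt19, Krt14, Cldn9 and Slurp1 had 4, 1, 4 and 11 counts in ha and were tested only through hr. The share called higher and the median can therefore lean towards hr through the filter. The 5 were Krt19, Slurp1, Krt14, Cldn9 and Pkp1, which encodes a desmosomal plakophilin and lost its call in 4 omissions (edgeR adjusted p = 0.0312, and up to 0.125). The gene called lower, the tight junction gene Cldn1, had 39 counts in ha and 1 in hr and lost its call in 4 of 7 omissions (edgeR adjusted p = 0.0413, and up to 0.160). The defining genes of epithelium were at or near 0: Epcam had no count in any of the 6 libraries, Cdh1, which encodes E-cadherin, had 4 counts in ha and 5 in hr, and the epithelial regulator genes Esrp1 and Grhl2 had 0 and 4 counts in ha and 4 and 21 in hr. Krt8, the partner of Krt18 and Krt19 in simple epithelia, stood at 0.583 and 0.410 CPM in ha, 2.87 and 3.57 in hr 1, and 1.14 and 0.889 in hr 2, and did not pass (edgeR adjusted p = 0.14). Krt18 had 1 count in ha and 6 in hr, too few to test. The summed level of the 31 genes was 34.7 and 49.3 CPM in ha and 222 to 293 in hr. Without ha 1 or without ha 2, 3 epithelial genes were called higher and none lower.

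The laminin chains of the basement membrane, the sheet of matrix under epithelia and around muscle, differed between the groups in both directions. Of 19 basement membrane genes tested, 3 were called higher in hr and 3 lower, with a median of -0.73. Lama5 stood at 27.6 and 24.0 CPM in ha and 274 to 295 in hr (3.47 ± 0.21, edgeR adjusted p = 0.00684), and Lamb3, a chain of an epithelial laminin, at 0.219 and 0.234 in ha and 13.6 to 19.7 in hr (6.11 ± 0.44, edgeR adjusted p = 0.00744). Both kept their calls in all 8 omissions. Lama3, the alpha chain gene of the same laminin, was low in both groups and did not pass (-1.23 ± 0.76, edgeR adjusted p = 0.333). Lower were Lama4, given above, Lamb2 (-1.22 ± 0.20, edgeR adjusted p = 0.0288) and the nidogen gene Nid2, at 314 and 148 CPM in ha and 13.1 to 29.1 in hr (-3.50 ± 0.53, edgeR adjusted p = 0.0248). The calls of Lamb2 and Nid2 were lost in 4 and 2 of 8 omissions (edgeR adjusted p up to 0.118 and 0.0537). Without ha 1, 2 genes were called higher and 1 lower; without ha 2, 2 higher and 2 lower, and without hr 1, 3 higher and 2 lower, and without hr 2, 2 higher and 3 lower.

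Several genes of the interstitial matrix were lower in hr: of 23 tested, 8 were called lower and none higher, with a median of -2.49 and 22 of 23 below 0. Postn, the matricellular protein periostin, stood at 114 and 117 CPM in ha and 0.0715 to 0.17 in hr (-9.80 ± 0.35, edgeR adjusted p = 0.0022). Fbn1, which builds microfibrils, stood at 490.1 and 633 CPM in ha and 26.0 to 39.8 in hr (-4.10 ± 0.31, edgeR adjusted p = 0.00847), and EF was at 121 and 117. Col5a3 was lower as well (-3.42 ± 0.39, edgeR adjusted p = 0.0148), and these 3 kept their calls in all 8 omissions. The main fibrillar collagen gene Col1a1 did not pass, at 5187 and 3583 CPM in ha and 2885 to 2993 in hr (-0.57 ± 0.31, edgeR adjusted p = 0.275). For several others the 2 hr numbers differed: Col3a1 stood at 4300.4 and 3600.1 CPM in ha, 301 and 303 in hr 1, and 28.3 and 30 in hr 2, and did not pass (edgeR adjusted p = 0.0655) although every hr library was more than 10-fold below ha. Without ha 1 or without ha 2, 4 matrix genes were called lower.

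Genes of the mesenchymal state did not move as a block. Of 20 EMT factors and mesenchymal genes, 6 were called lower in hr and none higher, with a median of -0.50 (-0.32 without ha 2). Cdh11, the mesenchymal cadherin, stood at 95.7 and 241 CPM in ha and 0.674 to 0.889 in hr (-7.74 ± 0.61, edgeR adjusted p = 0.00847). The transcription factor genes Snai2 (63.0 and 92.1 CPM in ha, 9.52 to 16.7 in hr; -2.51 ± 0.33, edgeR adjusted p = 0.0189), Tcf4 (-1.82 ± 0.22, edgeR adjusted p = 0.0153) and Zeb1 (147 and 145 CPM in ha, 48.2 to 60.4 in hr; -1.4 ± 0.19, edgeR adjusted p = 0.020) were lower too. Prrx1, the limb mesenchyme factor, stood at 487 and 649 CPM in ha and 156 to 254 in hr (-1.47 ± 0.32, edgeR adjusted p = 0.0487). The calls of Zeb1 and Prrx1 were lost without ha 1, ha 2 or hr 2 (edgeR adjusted p up to 0.0783 and 0.166) and that of Tcf4 without hr 2 (0.0533 by edgeR). Vim, the mesenchymal intermediate filament gene, was the opposite way, at 1916 and 2103 CPM in ha and 4096 to 5591 in hr, without passing (1.28 ± 0.30, edgeR adjusted p = 0.0562), and so was Cdh2, which encodes N-cadherin (41.7 and 50.7 CPM in ha, 75.5 to 151 in hr; 1.31 ± 0.34, edgeR adjusted p = 0.0735). Without ha 1 and without hr 2, 3 members were called lower. With ha 2 left out, 4 were called lower and 1 higher, and without hr 1-1, hr 1-2, hr 2-2 or both libraries of hr 1, 6 and 1.

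Among contractile genes the calls were all lower, and among stromal surface markers they went both ways. Of 15 contractile genes, 4 were called lower and none higher, with a median of -1.38. Myl9, a regulatory myosin light chain gene, stood at 14.7 and 32 CPM in ha and 0.5 to 0.766 in hr (-5.28 ± 0.53, edgeR adjusted p = 0.0125). Mylk, the kinase that activates it, was at 282 and 219.7 CPM in ha, 31.2 and 32.7 in hr 1, and 14.8 and 12.4 in hr 2 (-3.45 ± 0.46, edgeR adjusted p = 0.020, lost without ha 1 or ha 2, up to 0.0688 by edgeR). Without ha 1, 2 contractile genes were called and without ha 2, 1. Of 17 stromal surface markers, 2 were called higher and 3 lower, with a median of 0.16 (-0.24 without ha 1 and 0.47 without ha 2). Pdgfra, a receptor that marks mesenchymal progenitors, stood at 1446 and 1601 CPM in ha, 268 and 255 in hr 1, and 82.0 and 89.3 in hr 2 (-3.13 ± 0.58, edgeR adjusted p = 0.0361). Pdgfrb stood at 378 and 307 CPM in ha and 13.1 to 32.6 in hr (-3.93 ± 0.48, edgeR adjusted p = 0.0162), and Thy1 was lower (-2.32 ± 0.40, edgeR adjusted p = 0.0324, lost without hr 1 or hr 2). Kitl, the ligand of the receptor KIT, was at 6.19 and 13.5 CPM in ha and 86.6 to 97.7 in hr (3.25 ± 0.40, edgeR adjusted p = 0.0168), and Alcam was higher (1.31 ± 0.24, edgeR adjusted p = 0.0359, lost in 4 omissions). Of these 5, Kitl kept its call in all 8 omissions; those of Pdgfra and Pdgfrb were lost without ha 1 or ha 2 (edgeR adjusted p up to 0.140 and 0.0595). Without ha 1 and without ha 2, 1 marker was called in each direction, and without hr 2, 1 higher and 2 lower.

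Interferon response genes were the list with the largest share called lower in hr: 15 of 26 tested, none higher, with a median of -3.15. In 24 of the 26 both ha libraries lay above all 4 hr libraries, while 55.9% of all genes tested did not overlap in either direction. Interferons act through a complex that holds STAT2 and IRF9 and binds a motif called ISRE in the promoters of these genes. Isg15, a ubiquitin-like protein, stood at 25.6 and 21.8 CPM in ha, 3.37 and 2.98 in hr 1, and 5.14 and 6.13 in hr 2 (-2.43 ± 0.36, edgeR adjusted p = 0.0232). Oasl2, of the oligoadenylate synthetase family, stood at 36.6 and 32.6 CPM in ha and 0.936 to 2.64 in hr (-4.22 ± 0.41, edgeR adjusted p = 0.0122). Oas2, of the same family, had 227 counts in ha and 2 in hr (counting interval of the ratio 0.000669 to 0.0203), and Ifih1, the RNA sensor MDA5, 249 and 2 (0.00061 to 0.0185). Genes of the signalling chain were lower too: Irf9 at 32.2 and 40.5 CPM in ha and 4.47 to 10.7 in hr (-2.17 ± 0.37, edgeR adjusted p = 0.0317) and Irf7 (-2.35 ± 0.48, edgeR adjusted p = 0.0434), while Stat2 did not pass (-1.14 ± 0.33, edgeR adjusted p = 0.0908). Irf9 lost its call without ha 1 or ha 2, and Irf7 in 6 omissions (edgeR adjusted p up to 0.0965 and 0.136). Ifit2, at 45.0 and 62.1 CPM in ha and 54.4 to 63.3 in hr, was the member with a positive value (0.10 ± 0.23, edgeR adjusted p = 0.788), which changed sign among the omissions. Left out singly, ha 1 gave 9 genes called lower and ha 2 gave 6, and in every omission 25 of the 26 values were below 0; Ifih1, Oas2 and Oasl2 kept their calls in all 8 and Isg15 lost its call without ha 1 and without ha 2 (edgeR adjusted p up to 0.0594). EF libraries were as low as hr, with Isg15 at 3.03 and 3.37 CPM and Oasl2 at 1.07 and 0.962. Of 14 genes of MHC class I presentation, which interferons also raise, 1 was called lower and none higher, with a median of -0.26 (-0.13 without ha 1 and -0.43 without hr 1). This was H2-K1, at 5.68 and 7.2 CPM in ha and 0.51 to 1.5 in hr (-2.65 ± 0.48, edgeR adjusted p = 0.0335), a gene with near-identical relatives that lost its call in 4 of 8 omissions (edgeR adjusted p up to 0.103).

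**Figure D4:**
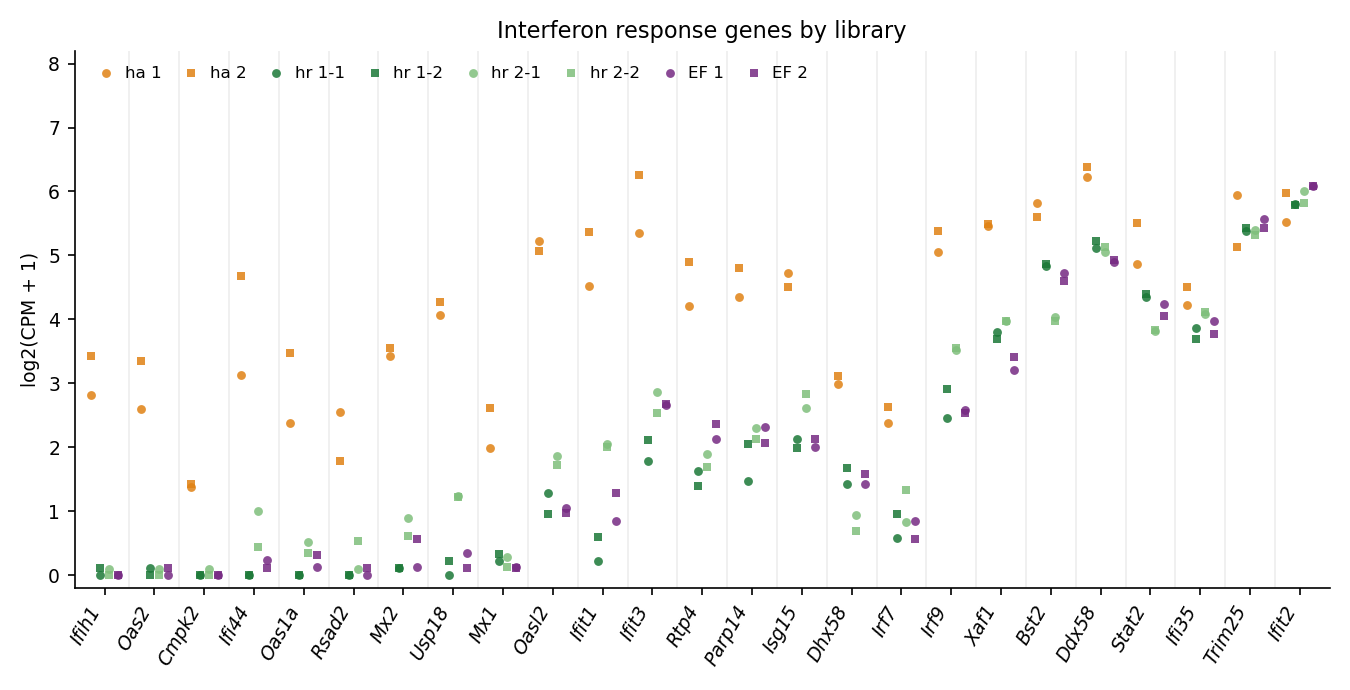
Level in each library, as log2(CPM + 1), of 25 interferon response genes, ordered by log2 fold change from Ifih1 to Ifit2. The ha points (orange) lie above all hr points (green) in all but Trim25 and Ifit2, and EF (purple) lies near hr.

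Sequences of 3 of these promoters show the ISRE, searched as GAAANNGAAA on both strands, with its sites in capitals. They are RefSeq sequences on GRCm38.p6: chr4:156200850-156200921 on the minus strand for Isg15, chr19:34583348-34583441 on the plus strand for Ifit3, and chr19:34640760-34640838 on the plus strand for Ifit1. The 3 sites of Isg15 overlap and begin 66 to 78 bases before the start, the 2 of Ifit3 begin 122 and 156 bases before it, and the 2 of Ifit1 85 and 104.
Isg15: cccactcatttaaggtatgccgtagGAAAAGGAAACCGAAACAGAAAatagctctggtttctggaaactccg
Ifit3: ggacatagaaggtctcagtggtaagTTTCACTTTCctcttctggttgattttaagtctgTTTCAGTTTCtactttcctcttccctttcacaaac
Ifit1: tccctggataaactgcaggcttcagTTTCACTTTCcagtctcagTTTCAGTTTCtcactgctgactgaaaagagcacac
Ifit3 stood at 39.6 and 75.7 CPM in ha and 2.44 to 6.29 in hr (-3.75 ± 0.49, edgeR adjusted p = 0.0189), and Ifit1 at 21.9 and 40.1 in ha and 0.169 to 3.14 in hr without passing (edgeR adjusted p = 0.0551). Over a window from 250 bases before to 50 after the start, 9 of 18 interferon response genes with a promoter in the table held an ISRE (50%), against 314 of 10125 genes tested (3.1%) and 943 of all 27025 promoters of the table (3.49%). Among genes called lower in hr 42 of 646 held it (6.5%), and among those called higher 6 of 333 (1.8%). The TEAD letters were in 7 of 15 YAP1/TAZ-TEAD targets (46.7%), in 98 of 646 genes called lower (15.2%), in 42 of 333 called higher (12.6%), in 11.9% of genes tested and in 14.6% of all promoters. A match describes the letters and is not a bound site.

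In the list of Wnt pathway genes, 10 of 23 tested were called lower in hr and none higher, with a median of -1.51. The list has 30 members, and its share called lower can lean through the filter. Ror1 had 6 counts in hr and Dkk2 1, so both were tested only through ha. The Wnt ligand gene Wnt7a, called higher in hr as given above, is not in this list. The receptor genes among them were Fzd8, at 21.3 and 40.5 CPM in ha and 1.35 to 3.14 in hr (-3.72 ± 0.51, edgeR adjusted p = 0.0205), and Ror1, a receptor for Wnt5a, at 6.70 and 5.86 in ha and 0 to 0.178 in hr (-5.60 ± 0.57, edgeR adjusted p = 0.0125). Both kept their calls in all 8 omissions, and so did the antagonist Dkk2. Axin2, a target and feedback inhibitor of the pathway, did not pass (-0.27 ± 0.46, edgeR adjusted p = 0.723) and changed sign among the omissions. Without ha 1, 5 were called lower and 1 higher; without ha 2, 3 were called lower, and without hr 2, 5.

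Of 28 TGF-beta and BMP pathway genes, 6 were called lower and none higher, with a median of -0.63 (-0.96 without hr 2). Tgfb2, a ligand, stood at 43.1 and 56.9 CPM in ha and 4.44 to 8.85 in hr (-2.90 ± 0.34, edgeR adjusted p = 0.0149), a call kept in all 8 omissions. Ltbp2, a microfibril protein, stood at 213 and 355 CPM in ha, 14.7 and 16.3 in hr 1, and 37.2 and 36.6 in hr 2 (-3.43 ± 0.52, edgeR adjusted p = 0.0248), and the co-receptor gene Tgfbr3 was lower (-1.68 ± 0.27, edgeR adjusted p = 0.0282). The calls of Ltbp2 and Tgfbr3 were lost without ha 1 or ha 2, that of Tgfbr3 also without hr 2 (edgeR adjusted p up to 0.0914 and 0.0748), and the list held 1 call lower without ha 1, 3 without ha 2 and 3 without hr 2.

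Of 18 FGF ligand, receptor and feedback genes, 3 were called lower and 1 higher, with a median of 0.09 (0.14 without ha 2, and -0.17, -0.11 and -0.13 without ha 1, hr 1 and hr 2). Fgfr1 stood at 328 and 224 CPM in ha and 64.1 to 83.5 in hr (-1.90 ± 0.28, edgeR adjusted p = 0.0225), the decoy receptor gene Fgfrl1 at 95.4 and 102 in ha and 16.1 to 28.7 in hr (-2.11 ± 0.29, edgeR adjusted p = 0.0201), and the feedback inhibitor gene Spry2 at 188 and 89.8 in ha and 8.01 to 16.6 in hr (-3.51 ± 0.52, edgeR adjusted p = 0.0238). Higher was the ETS factor gene Etv4 (3.67 ± 0.78, edgeR adjusted p = 0.0473). None of these 4 calls was kept in all omissions (edgeR adjusted p up to 0.0570 for Fgfr1, 0.0582 for Fgfrl1, 0.0537 for Spry2 and 0.165 for Etv4). The list held 2 calls lower without ha 2, 4 lower without ha 1 or hr 1-2, 2 lower without hr 2, and 1 lower and 2 higher without hr 1.

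Lists of the skeletal lineages held few tested genes: 8 of 15 osteoblast, 8 of 16 chondrocyte and 13 of 18 adipocyte genes. Some called members were tested only through a single group, so the shares can lean through the filter. Among them were Alpl (25 counts in ha, 2 in hr), Comp (67 and 2) and Col9a2 (23 and 0) through ha, and Lpl (19 and 546) through hr. Over all genes tested, 3.06% were called higher in hr and 6.53% lower. Of 8 osteoblast genes with enough counts, 3 were called lower and 1 higher: Runx2, the master regulator of bone formation, stood at 90.1 and 79.0 CPM in ha and 39.4 to 45.7 in hr (-0.96 ± 0.19, edgeR adjusted p = 0.0405), and Phex, a surface peptidase of bone cells, at 2.48 and 1.99 in ha and 11 to 16.6 in hr (2.63 ± 0.37, edgeR adjusted p = 0.0207). Of 8 chondrocyte genes, 3 were called lower, among them Col11a2, at 12.5 and 5.68 CPM in ha and 0.715 to 1.62 in hr (-3.04 ± 0.59, edgeR adjusted p = 0.0392). Of 13 adipocyte genes, Lpl, which encodes lipoprotein lipase, was the call, at 0.146 and 0.995 CPM in ha, 13.2 and 14.4 in hr 1, and 9.57 and 7.65 in hr 2 (4.24 ± 0.80, edgeR adjusted p = 0.0378); EF stood higher, at 45.0 and 50.3. Each of these 4 calls was lost in 2 to 4 omissions: the edgeR adjusted p went up to 0.132 for Runx2, 0.0742 for Phex, 0.132 for Col11a2 and 0.0796 for Lpl. Osteoblast genes held no call without ha 2 or hr 2, and 1 in each direction without ha 1, hr 2-2 or both libraries of hr 1. Chondrocyte genes held none without ha 1 and 1 lower without ha 2, hr 1 or hr 2, and Lpl was not called without hr 1 or hr 2.

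Glycolysis and hypoxia genes were called higher in hr in 5 of 23 and lower in none, with a median of 1.00. Pfkp, the platelet form of phosphofructokinase, stood at 33.0 and 35.7 CPM in ha and 104 to 134 in hr (1.81 ± 0.21, edgeR adjusted p = 0.0146), and kept its call in all 8 omissions. The glucose transporter gene Slc2a1 stood at 94.5 and 62.7 CPM in ha and 245 to 294 in hr (1.80 ± 0.27, edgeR adjusted p = 0.0248), lost without ha 2 (0.0676 by edgeR), and Pgam1, phosphoglycerate mutase, at 567 and 473 in ha and 1402 to 1552 in hr (1.51 ± 0.25, edgeR adjusted p = 0.0288), lost in 4 omissions (up to 0.0887 by edgeR). In EF these 3 genes were lower than in hr, with Pfkp at 48.8 and 48.2 CPM, Slc2a1 at 88.0 and 87.4 and Pgam1 at 686 and 696. Without ha 1, 2 of the list were called; without ha 2, 1, without hr 1, 2 and without hr 2, 3. In 18 of the 23 genes all 4 hr libraries lay above both ha libraries, while 55.9% of all genes tested did not overlap in either direction.

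Antioxidant and glutathione genes were called higher in 8 of 23 and lower in none, with a median of 0.73 (0.46 without ha 2). Gclm, the modifier subunit of the enzyme that starts glutathione synthesis, stood at 35.2 and 38.7 CPM in ha, 118 and 114 in hr 1, and 171 and 177 in hr 2 (1.98 ± 0.26, edgeR adjusted p = 0.019). Txnrd1, thioredoxin reductase, stood at 144 and 143 CPM in ha and 339.5 to 444 in hr (1.45 ± 0.23, edgeR adjusted p = 0.0255). The other 6 were Nqo1, Gclc, Gsr, Gsta1, Gsta2 and Gstp1. Those of Gclm and Txnrd1 were lost without ha 1 or ha 2, and that of Txnrd1 without hr 2 (edgeR adjusted p up to 0.0587 and 0.0858), and the list held 2 calls without ha 1, 1 without ha 2, 5 without hr 1 and 3 without hr 2.

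Stress and sterol genes showed few calls. Of 20 genes of the unfolded protein and ATF4 response, Psat1, an enzyme of serine synthesis, was higher (157 and 115 CPM in ha, 302 to 365 in hr; 1.30 ± 0.25, edgeR adjusted p = 0.038) and Dnajb9, a chaperone of the endoplasmic reticulum, lower (46.6 and 34.5 in ha, 10.3 to 13.1 in hr; -1.73 ± 0.24, edgeR adjusted p = 0.0204), with a median of 0.22 (0.55 without ha 1). Psat1 lost its call in 4 omissions and Dnajb9 without ha 1 or hr 2 (edgeR adjusted p up to 0.124 and 0.0672). Without ha 1, 3 genes of this list were called higher and none lower, without ha 2, 2 lower and none higher, without hr 1, 1 lower and none higher, and without hr 2 none. Of 20 cholesterol synthesis genes none was called in either direction by edgeR, at an unadjusted p under 0.05, or by DESeq2 or limma-voom. Their median was 0.66, and it changed sign to -0.11 without hr 1, with 1.35 without ha 1, 0.30 without ha 2 and 1.21 without hr 2. Idi1, isopentenyl diphosphate isomerase, stood at 85.5 and 39.3 CPM in ha, 232 and 225 in hr 1, and 78.3 and 78.9 in hr 2 (edgeR adjusted p = 0.22), and Mvk, mevalonate kinase, at 33.0 and 16.7 in ha, 63.0 and 60.6 in hr 1, and 30.4 and 29.5 in hr 2 (edgeR adjusted p = 0.265). In both, hr 1 lay above ha and hr 2 lay between the ha libraries.

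Most proliferation genes were higher in hr without passing the test. Of 21 mitosis genes 4 were called higher, beside 3.06% of all genes tested, and none lower. All 21 had a positive log2 fold change, and the median was 1.06. Without ha 1 the median was 0.63, with 1 gene below 0. Aurkb stood at 14.3 and 18.2 CPM in ha and 36.1 to 44.7 in hr, Plk1, another mitotic kinase, at 18.1 and 21.4 in ha and 34.8 to 51.2 in hr (1.15 ± 0.24, edgeR adjusted p = 0.0439), and Ube2c, a ubiquitin carrier of the anaphase-promoting complex, at 27.5 and 29.6 in ha and 55.2 to 67.1 in hr (1.09 ± 0.19, edgeR adjusted p = 0.0329). Mki67, a widely used proliferation marker, stood at 62.7 and 166 CPM in ha, 211 and 199 in hr 1, and 378 and 405 in hr 2, and did not pass (1.38 ± 0.55, edgeR adjusted p = 0.167). The ha libraries differed from each other, ha 2 being the higher in Mki67. Of 22 DNA replication genes 1 was called higher, with a median of 0.76 and none below 0. Without ha 1 the median was 0.46 and without hr 2 0.29, each with 4 genes below 0. The called gene was Pold1, the catalytic subunit of polymerase delta (0.98 ± 0.21, edgeR adjusted p = 0.0463). In 18 mitosis and 13 replication genes all 4 hr libraries lay above both ha libraries. Over all genes tested, 55.9% did not overlap in either direction. Without ha 1 no mitosis or replication gene was called, without hr 2 none, and without ha 2, 2 and none. Without hr 1 there were 6 and 3, without hr 1-1 5 and 2, and the calls of Aurkb, Plk1, Ube2c and Pold1 had edgeR adjusted p up to 0.0964, 0.144, 0.112 and 0.159 in these omissions.

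Of 18 p53 target genes 2 were called higher, with a median of 0.52 (0.79 without hr 1): the apoptosis gene Bax stood at 55.2 and 42.2 CPM in ha and 111 to 118 in hr (1.26 ± 0.21, edgeR adjusted p = 0.0302), and Aen, a nuclease gene, at 30.0 and 37.8 in ha and 82.7 to 119 in hr (1.59 ± 0.26, edgeR adjusted p = 0.0277). Neither was called without ha 1, ha 2 or hr 2 (edgeR adjusted p up to 0.0994 and 0.0857). Without hr 1, 3 of the list were called higher and 1 lower. Trp53 itself overlapped between the groups, at 111 and 94.6 CPM in ha and 100.2 to 149 in hr (0.32 ± 0.24, edgeR adjusted p = 0.422), and Cdkn2a had no count in any of the 8 libraries of experiment 2.

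Markers of other cell types differed in how far they were expressed. Of 16 hematopoietic markers, 3 had enough counts to test, and the defining gene Ptprc, which encodes CD45, had no count in ha and 3 in hr, with Adgre1, Tyrobp, Cd52 and Cd48 at 0 in all 6 libraries. The summed level of the 16 was 9.69 and 15.2 CPM in ha and 5.27 to 7.36 in hr, and Lyz2, the lysozyme of myeloid cells, was called lower, from 6.85 and 10.9 CPM to between 0.169 and 0.8 (-4.36 ± 0.73, edgeR adjusted p = 0.03, lost without ha 1 or ha 2, up to 0.0858 by edgeR). No endothelial, myogenic or osteoclast marker of 6, 2 and 2 tested was called by edgeR. With 6 libraries as separate samples edgeR called 2 endothelial and 1 osteoclast marker lower. At an unadjusted p under 0.05, and by DESeq2, 1 endothelial and 1 osteoclast marker were lower and no myogenic marker differed, and limma-voom called the osteoclast marker alone. Without hr 1, 2 osteoclast markers were called lower, without hr 1-2 or hr 2-1 1 of them, and without hr 2-1 also 1 endothelial marker. By level, Tek stood at 2.55 and 10.8 CPM in ha and 0 to 0.429 in hr (edgeR adjusted p = 0.0668), Acta1 at 0.291 and 1.11 in ha and 1.71 to 3.12 in hr (edgeR adjusted p = 0.201), and Ctsk at 29.0 and 35.2 in ha and 5.79 to 15.5 in hr (edgeR adjusted p = 0.0626). Of 7 neural markers tested, Tubb3, a neuronal tubulin, was called higher (2.91 ± 0.42, edgeR adjusted p = 0.0215) and Ncam1 (93 and 108 CPM in ha, 34.9 to 42.3 in hr; -1.39 ± 0.19, edgeR adjusted p = 0.0204) and Map2 lower, and the glial factor gene Sox10 had no count in the 6 libraries. Map2 stood at 14.6 and 13.6 CPM in ha, 0 in hr 1 and 0.357 and 0.0889 in hr 2 (-6.78 ± 0.92, edgeR adjusted p = 0.0202, and -10.99 without hr 2). Calls of Tubb3 and Map2 were lost without ha 1 or ha 2, that of Tubb3 also without hr 2, and that of Ncam1 without ha 2, hr 1 or hr 2 (edgeR adjusted p up to 0.0723, 0.0714 and 0.0624). The list held no call without ha 2, 1 lower without hr 2, and 1 in each direction without ha 1 or hr 1, and the hematopoietic list held none without ha 1 or ha 2. The part of other cell types in the differences between hr and ha was not tested. In bulk RNA, fewer cells of a type and less RNA per cell cannot be told apart.

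Xist, the RNA that silences an X chromosome in female cells, separated EF from both other groups. It stood at 397 and 928 CPM in ha, 130.4 and 123 in hr 1, 448 and 450.1 in hr 2, and 0.357 and 0.0801 in EF. The difference between hr and ha did not pass (-1.2 ± 0.69, edgeR adjusted p = 0.306), and the Y-linked genes Ddx3y, Uty, Kdm5d and Eif2s3y had at most 1 count each in either group. None of 5 tested sex-linked genes was called by edgeR; with 6 libraries as separate samples edgeR called 1 lower, as did DESeq2, 1 was lower at an unadjusted p under 0.05, and limma-voom called none.

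Levels in EF, which the comparison of hr with ha does not use, were set beside those of the called genes as a description. Of the 438 genes called higher in hr, 365 (83.3%) had an EF mean nearer to hr than to ha, and of the 935 called lower, 910 (97.3%) did. The same share was not taken over all genes tested, so these percentages have no background beside them. In 208 of the 438 and 496 of the 935 the EF mean lay beyond that of hr, and in 221 and 438 between the groups. EF differed from hr nonetheless, by 15.9 to 17.9 on the scale of library distances given above, about as much as hr 1 from hr 2, while ha and EF lay 63.1 to 70.1 apart.

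**Figure D5:**
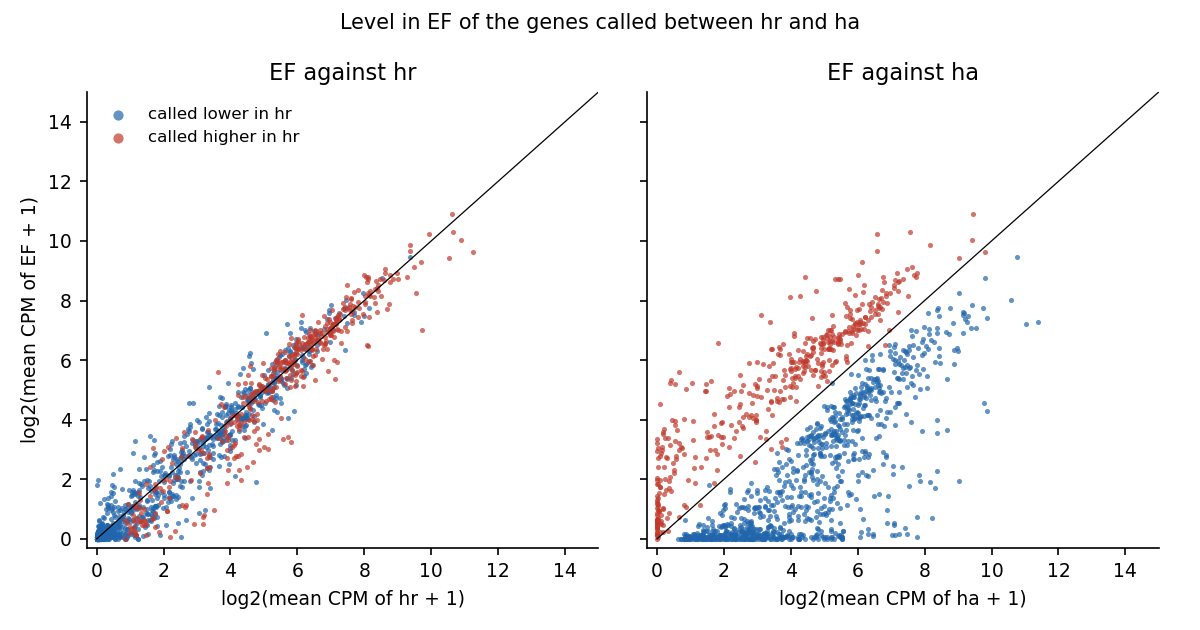
Mean level in EF against that in hr (left) and ha (right), as log2(CPM + 1), for the genes called higher (red) and lower (blue) in hr; the line marks equal levels. Points gather along the line in the left panel, where 97.3% of the blue and 83.3% of the red genes have EF nearer to hr, and lie away from it in the right panel.

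Calls were spread over the autosomes and the X chromosome. The share called was highest on chromosome 9, with 29 genes higher and 87 lower of 820 tested (14.1%), and lowest on chromosome 8 (7.02% of 769). Over all genes tested it was 9.59%. On chromosome 9 the median log2 fold change was -0.27 and 64.8% of genes were below 0, while on chromosome 19 the median was 0.25 and 34.6% were below 0. Within 2 Mb of Yap1, 16 other genes were tested. Of these, 2 were called higher and 7 lower, with a median of -0.75, beside 3.06% higher and 6.53% lower over all genes tested. Cfap300, which encodes a ciliary protein and lies at chr9:8021672-8042823, stood at 2.62 and 2.28 CPM in ha and 17.3 to 18.7 in hr (2.87 ± 0.29, edgeR adjusted p = 0.0127). Cep126, a centrosomal protein gene at chr9:8076461-8134294, stood at 0.801 and 2.81 CPM in ha, 29.5 and 27.9 in hr 1, and 76.0 and 73.2 in hr 2 (4.81 ± 0.75, edgeR adjusted p = 0.0259). On the other side of Yap1, Birc3, an inhibitor of apoptosis gene at chr9:7848699-7873186, was lower (-2.13 ± 0.31, edgeR adjusted p = 0.0233). Pgr, which encodes the progesterone receptor and lies at chr9:8899833-8968611, had 2510 counts in ha (43.1 and 112 CPM) and 21 in hr (0.0843 to 1.07 CPM; -7.48 ± 0.80, edgeR adjusted p = 0.0139). Calls of Cfap300 and Pgr were kept in all 8 omissions, and those of Birc3 and Cep126 were lost without ha 1, ha 2 or hr 2 (edgeR adjusted p up to 0.0834 and 0.099).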

How the data were processed

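Libraries of experiment 2 were compared from expected counts per gene, which the authors made with STAR and RSEM on the genome GRCm38.p6, per the submitters' processing notes. The sources used here state no version, annotation release or strand setting, so antisense and overlapping genes cannot be told apart. The deposited table held 55471 genes; 8.25% of its values were not whole, and all were rounded. The libraries of each hr number were summed, and 2 sums were compared with 2 ha libraries by edgeR 4.0.16 (R 4.3.3): genes kept by filterByExpr (minimum count 10), TMM scaling, a two-sided quasi-likelihood test with 2 residual degrees of freedom, and Benjamini-Hochberg adjustment over all genes tested at 0.05. On simulated data (14027 genes) edgeR called 72.9% of genes with a log2 change of -3, 86% with 3, 10.6% with -1, 4% with 1, and 0.0795% of unchanged genes. The simulation gave 200 genes a change, fewer than the 1373 called in the data, so these shares need not hold there. Alternatives were other library sets, filters, scalings, DESeq2 1.42.0, limma 3.58.1, a fold threshold, a replicate block and omissions. Values after ± were calculated back from the log2 fold change and the quasi-likelihood F statistic. Counting intervals are 95% exact binomial and, like floors (3 counts over a group), cover counting error only.

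Members and gene lists were chosen with earlier results of these data known. Named were set key genes, the 10 called genes of largest change in each direction (no overlap, at least 10 CPM), up to 3 called members per list and direction by p-value (2 of lowest p-value where none was called), and up to 4 called genes within 2 Mb of Yap1; other genes, and the promoters printed, were chosen after their values were seen. Values of a few called genes are not reported here, though the counts include them. Promoters run from 250 bases before to 50 after the start.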

Additional observations from a re-analysis of the deposited data

Results flagged for a closer look

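Of 132 quantities examined among the 4 hr libraries, 8 had a library set apart from the other 3 by more than Dixon's 95% critical value. Chance reaches that value in about 1 in 20 groups of 4 independent samples. The hr libraries fall into close pairs by first number, so this rate need not hold here. In 7 of the 8 quantities the library set apart held 1 or 2 counts, and in 6 of these the other 3 libraries had no count. Igf2 stood at 0.178 CPM in hr 2-2. Lama4 and Dkk2 each stood at 0.0715 CPM in hr 2-1, Cldn1 at 0.0851 in hr 1-2 and Comp at 0.17 in hr 1-2. Cdh1 stood at 0.143 CPM in hr 2-1, with a lowest value of 0.0843. The total count of hr 2-1, 14211419, was above those of the other hr libraries.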

How the results depend on the processing

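With hr libraries taken as separate samples, edgeR called 4473 genes (1919 higher, 2554 lower) in 6 libraries and 5517 (2506 and 3011) in all 8 libraries of experiment 2. Without a filter on low counts it called 3544 (1550 and 1994), and against a fold threshold of log2 1, 472 (105 and 367). DESeq2's Wald test called 2776 (1109 and 1667), and limma-voom with correlated hr libraries 1946 (855 and 1091). The share of calls lower in hr, 68.1%, became 57.1%, 54.6%, 56.3% and 56.1% with 6 libraries, with 8, without a filter and with correlated hr libraries. Leaving out libraries gave 463 to 1412 calls (129 to 491 higher, 334 to 941 lower). With the first title number as a replicate block 1215 genes were called (367 and 848), 1008 of them shared (73.4%); deviations of libraries of the same number correlated at 0.0722, so the numbers were not shown to pair the samples. Of the 101 called genes taken by the rule, the call ended in 45 under the fold threshold, 15 with correlated hr libraries, 12 with the block, 4 with limma-voom, 4 under a mean of at least 5 CPM, 1 without a filter and 1 with DESeq2, and in none of those tested with 6 or 8 libraries or DESeq2's size factors. None of the genes taken by the rule reversed. The causes of these moves were not tested. With 2 samples a group, log2 changes near 1 were seldom called in simulated data, where only 200 genes were given a change.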
